A study of Homo sapiens with 8 samples.

Results

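The SLC25 genes encode the mitochondrial carrier family. All genes of the deposited count table whose symbol is SLC25A followed by a number were taken, which gave 41 of the 14668 genes in the table. They were measured in T3M4, a cell line established from a human pancreatic tumour. The control arm carried a non-targeting guide RNA (sgControl), and the other arm a guide RNA that targets METTL13 (sgMETTL13), the methyltransferase that acts on the translation elongation factor eEF1A. Cells of both arms had been held without serum for 18 h and then received 10% FBS for 2 h. Each arm had 2 RNA-seq libraries of poly(A) RNA and 2 ribosome profiling libraries, which count the mRNA fragments protected by ribosomes (footprints), 8 libraries in all. The labels do not say whether the cells were a clone or a pool, or whether the replicates came from separate cultures. The p-values therefore measure the spread among these libraries alone, which may be technical.

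Carriers of this family sit almost all in the inner mitochondrial membrane, and a few sit in the outer membrane or in peroxisomes. Each is a bundle of transmembrane helices that opens to one side of the membrane at a time and exchanges or imports a small solute. The family joins the cytosol to the matrix: it returns ATP for ADP and phosphate, moves citrate, malate, aspartate and glutamate, and brings in cofactors, iron and glutathione. Carriers are made by cytosolic ribosomes and threaded through the outer membrane pore, small chaperones of the intermembrane space and the TIM22 translocase.

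RNA libraries held 20860953 to 48353722 counts and footprint libraries 6063885 to 9837253. Levels are given as CPM, counts scaled to a common library size with TMM factors. The limit that 0 counts leave (3 counts) was 0.144 CPM for the RNA library with fewest counts and 0.495 CPM for such a footprint library, which covers counting error alone. METTL13 footprints read 57.8 to 65.2 CPM in sgControl and 20.1 to 26.2 CPM in sgMETTL13 (edgeR log2 fold change, LFC below, of sgMETTL13 over sgControl -1.41, adjusted p = 6.38e-07). Its mRNA was also lower in both sgMETTL13 libraries, at 25.2 and 35.1 CPM against 89.7 and 71.4 CPM, but did not pass after adjustment (-1.42, SE 0.406, edgeR adjusted p = 1.00). The epithelial markers KRT8, KRT18, KRT19, EPCAM and CDH1 were present in every RNA library, the lowest value being 118 CPM. Of the markers of other cells, PTPRC, COL3A1 and PDGFRB stayed below 0.1 CPM in RNA, CD3E and CD14 were not among the genes used here, and COL1A1 read 18.7 to 31.9 CPM in RNA. The sgMETTL13 RNA replicates stood apart from each other. Over the SLC25A genes tested, replicates differed on the log2 scale with an SD of 0.794 for sgMETTL13 RNA and 0.336 for sgControl RNA, and of 0.356 and 0.339 for the footprints of the same arms.

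In footprints, 2 SLC25A genes differed between the arms. SLC25A10, the mitochondrial dicarboxylate carrier, fell in sgMETTL13, and SLC25A16, a carrier linked to coenzyme A supply of the matrix, rose. The other 33 of the 35 SLC25A genes with enough footprints to be tested did not pass edgeR's quasi-likelihood test with Benjamini-Hochberg adjustment over all genes (adjusted p below 0.05). The 2 calls were 5.71% of the SLC25A genes tested, where 21.0% of all 10714 genes tested were called. By direction, 1 SLC25A gene was higher against 8.94% of all genes, and 1 was lower against 12.0%. A fit of all 8 libraries in 1 model called 0 of the 10714 genes in footprints, and so not METTL13 either. For each gene that fit uses 1 spread for both assays. Fitted alone, RNA had a wider spread than footprints (common biological coefficient of variation 0.337 against 0.0992). The part of this in the lost calls was not tested, and a call lost there does not tell 1 gene from another. In 18 of the 35 genes (51.4%) the footprints of the arms stood apart without overlap, 7 higher and 11 lower, against 64.1% of all genes. The sizes of the differences were close to those of the table as a whole: the median size of the log2 fold change was 0.27 in the SLC25A genes and 0.28 in all genes, and 20% and 23.8% respectively reached a size of 0.5, a value chosen after the data were seen. Their errors were larger, with a median SE of 0.258 against 0.178 over all genes, and the sizes above include such error. Whether the carriers moved less than other genes was not tested. The signed median was -0.11 for the SLC25A genes and 0.01 for all genes.

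**Figure D1:**
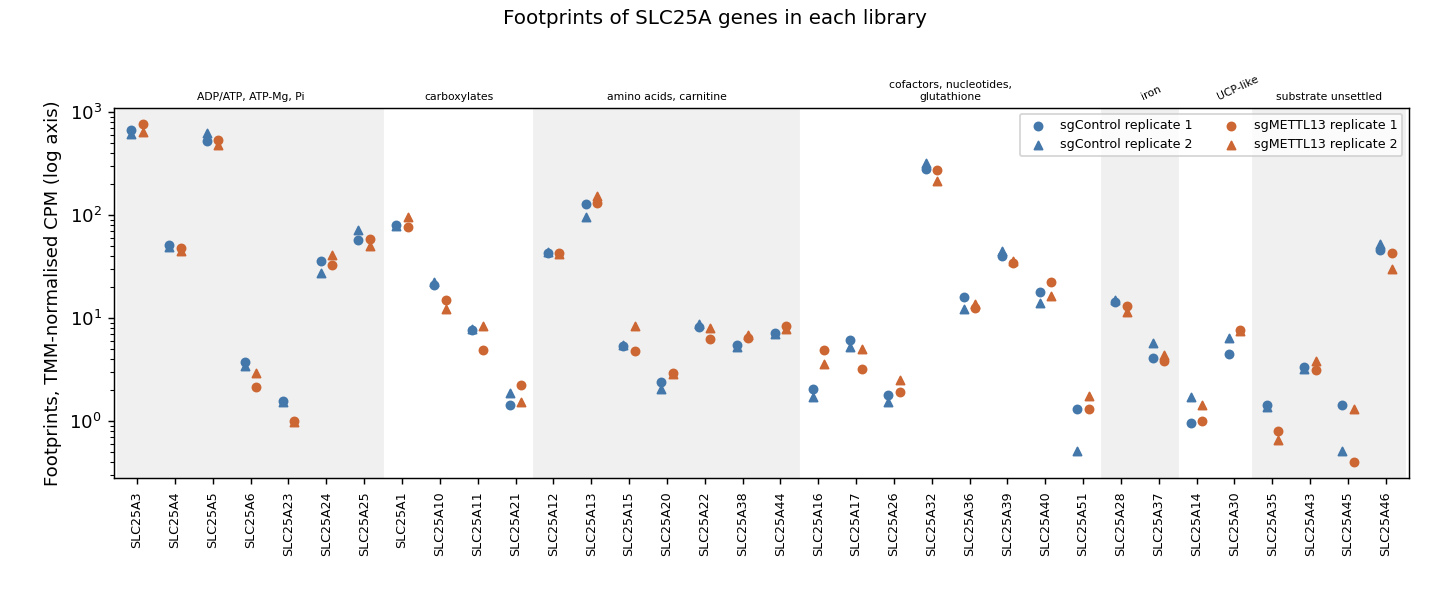
Footprints of all but 1 of the 35 SLC25A genes tested, in TMM-normalised CPM on a log axis, for each of the 4 footprint libraries (circles replicate 1, triangles replicate 2), with genes grouped by what they carry. The arms lie close together for most genes, and SLC25A10 and SLC25A16 are the 2 whose gap passed the test.

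The family took 0.203% to 0.219% of all footprints in the 4 footprint libraries and 0.318% to 0.348% of all RNA counts. SLC25A3, SLC25A5, SLC25A32 and SLC25A13 were the 4 carriers with most footprints in each library. Together they held 75.6% to 78.2% of the family's counts in footprint libraries and 48.2% to 55.5% in RNA libraries. They were not the 4 highest in RNA, where SLC25A39 had 11382 and 7928 counts in sgControl and SLC25A32 had 3152 and 2035. These shares are of counts and were not divided by coding length. The family's share was 0.210% and 0.215% in sgControl footprints, between the 0.203% and 0.219% of the sgMETTL13 libraries. Counts are relative to each library, so fewer carrier mRNAs per cell and more of other mRNAs cannot be told apart.

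Among the 4 carriers of carboxylates, SLC25A10 was the one that passed in footprints, where 21.0% of all genes passed. SLC25A10 lies on chromosome 17 at 81712284 to 81721012 (GRCh38) and exchanges malate or succinate for phosphate. Its footprints read 21.3 and 22.7 CPM in sgControl replicates 1 and 2, and 14.9 and 12.4 CPM in sgMETTL13 (counts of 176 and 133 against 147 and 113). Both sgMETTL13 libraries lay below both sgControl libraries, an LFC of -0.68 (SE 0.191, n = 2 per arm, edgeR adjusted p = 0.0111). SLC25A10 mRNA read 96.2 and 109 CPM in sgControl against 75.5 and 115 CPM in sgMETTL13, so the arms overlapped there (LFC -0.11, SE 0.372). The footprint call was lost without sgControl replicate 2 (-0.64, adjusted p = 0.0541), without sgMETTL13 replicate 2 (-0.55, adjusted p = 0.185), and in a fit of all 8 libraries (-0.69, adjusted p = 0.530). The call held without sgControl replicate 1 (-0.73, adjusted p = 0.0099) and without sgMETTL13 replicate 1 (-0.83, adjusted p = 0.0176).

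The other 3 carboxylate carriers did not pass. SLC25A1, the citrate carrier that exports citrate for lipid synthesis, read 81.3 and 78.8 CPM of footprints in sgControl and 77.7 and 96.1 CPM in sgMETTL13 (LFC 0.12, SE 0.143). SLC25A11, the oxoglutarate carrier of the malate-aspartate shuttle, read 7.62 and 7.87 CPM against 4.98 and 8.34 CPM (-0.22, SE 0.266). In both genes 1 sgMETTL13 library lay below and 1 above the sgControl pair. SLC25A21, the carrier of oxoadipate, had 11 to 22 footprints per library and an LFC of 0.21 (SE 0.405).

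SLC25A16 lies on chromosome 10 at 68477998 to 68527523 and belongs to the carriers of cofactors, nucleotides and glutathione. Its footprints numbered 17 and 10 in sgControl and 48 and 33 in sgMETTL13, which is 2.06 and 1.71 CPM against 4.88 and 3.62 CPM. Both sgMETTL13 libraries lay above both sgControl libraries, and the LFC was 1.15 (SE 0.345, n = 2 per arm, edgeR adjusted p = 0.017). SLC25A16 mRNA read 7.40 and 5.44 CPM in sgControl against 11.8 and 5.66 CPM in sgMETTL13, where sgMETTL13 replicate 1 alone was high (LFC 0.44, SE 0.488). The footprint call was lost without sgControl replicate 2 (1.04, adjusted p = 0.128), without sgMETTL13 replicate 1 (0.91, adjusted p = 0.162) and in the fit of all 8 libraries (1.16, adjusted p = 0.508), and DESeq2 gave this gene no adjusted p. It held without sgControl replicate 1 (1.31, adjusted p = 0.0373) and without sgMETTL13 replicate 2 (1.35, adjusted p = 0.0311).

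Among the 9 cofactor, nucleotide and glutathione carriers tested in footprints, SLC25A16 rose and none fell, against 8.94% and 12.0% of all genes. SLC25A32, the carrier of folate and flavin into the matrix, read 284 and 323 CPM in sgControl against 279 and 216 CPM in sgMETTL13. Both sgMETTL13 values lay below both sgControl values, but by little in replicate 1, and the log2 fold change of -0.29 (SE 0.133) did not pass (adjusted p = 0.112). It passed without sgControl replicate 1 (-0.38, adjusted p = 0.0301), but not without sgMETTL13 replicate 1 (-0.50, adjusted p = 0.0567), sgControl replicate 2 (-0.21, adjusted p = 0.426) or sgMETTL13 replicate 2 (-0.12, adjusted p = 0.773). SLC25A39 and SLC25A40 are the glutathione importers of mitochondria. SLC25A39 read 40.4 and 45.0 CPM against 34.5 and 35.7 CPM (LFC -0.28, SE 0.155, adjusted p = 0.204), with no overlap of the arms. SLC25A40 read 17.9 and 14.0 CPM against 22.4 and 16.6 CPM (0.27, SE 0.200), with the arms overlapping. SLC25A51, the importer of NAD, had 11 and 3 footprints in sgControl and 13 and 16 in sgMETTL13 (0.63, SE 0.480). SLC25A17 of peroxisomes, the S-adenosylmethionine carrier SLC25A26 and the pyrimidine nucleotide carrier SLC25A36 did not pass and ranged from -0.48 to 0.38. SLC25A33, a second pyrimidine nucleotide carrier, and SLC25A42, a carrier of coenzyme A, had at most 8 footprints in a library and were not tested there.

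Carriers of adenine nucleotides and phosphate supply oxidative phosphorylation, and none of the 7 tested passed in footprints, against 21.0% of all genes. SLC25A3, the phosphate carrier, read 678 and 613 CPM in sgControl against 764 and 651 CPM in sgMETTL13 (LFC 0.13, SE 0.122, adjusted p = 0.47). SLC25A5, the ADP/ATP carrier typical of dividing cells, read 527 and 636 CPM against 540 and 485 CPM (-0.18, SE 0.125, adjusted p = 0.316). SLC25A4, the ADP/ATP carrier of heart and muscle, read 51.3 and 49.2 CPM against 48.0 and 45.4 CPM (-0.11, SE 0.148). In SLC25A3 and SLC25A5 the arms overlapped, and in SLC25A4 the sgMETTL13 pair lay just below the sgControl pair. SLC25A5 has 9 numbered pseudogenes in the RefSeq table, SLC25A6 6 and SLC25A3 3, so a short read from them may have several possible origins. The same holds for some carriers of other groups, such as SLC25A1 and SLC25A15 with 5 each and SLC25A51 with 4.

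SLC25A6, the remaining broadly expressed ADP/ATP carrier, had fewer RNA counts than footprints. It had 7 and 5 RNA counts in sgControl and 3 and 9 in sgMETTL13, but 31 and 20 footprints in sgControl and 21 and 27 in sgMETTL13. The RefSeq promoter table lists SLC25A6 at the same position on chromosome X and on chromosome Y, since it lies in the region the sex chromosomes share. How reads matching both copies were counted is not given in the sources used here, so its level was not read as expression. TIMM22 of the import route, on chromosome 17, had 0 counts in each RNA library and 32 to 71 footprints per library. The cause was not tested for either gene. The footprint log2 fold change of SLC25A6 was -0.50 (SE 0.329, adjusted p = 0.288).

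The ATP-Mg/phosphate carriers SLC25A23, SLC25A24 and SLC25A25 bind calcium on the outer face of the inner membrane. SLC25A25 read 58.3 and 72.0 CPM of footprints against 58.6 and 50.6 CPM (LFC -0.25, SE 0.151), and SLC25A24 read 36.1 and 27.5 CPM against 32.6 and 41.2 CPM (0.20, SE 0.171). SLC25A23 had few footprints, 9 to 13 per library, and read -0.63 (SE 0.448) without overlap of the arms. None of the 3 passed.

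Amino acid and acylcarnitine carriers also held no call among 7 tested, against 21.0% of all genes. The aspartate-glutamate carriers SLC25A12 and SLC25A13 are paralogs and serve the malate-aspartate shuttle. SLC25A12 footprints were 42.8 and 43.9 CPM in sgControl against 43.0 and 42.2 CPM in sgMETTL13, an LFC of -0.03 (SE 0.151). SLC25A13 footprints were 130 and 96.6 CPM in sgControl against 131 and 153 CPM in sgMETTL13, an LFC of 0.32 (SE 0.144) that did not pass (adjusted p = 0.109). Both sgMETTL13 libraries of SLC25A13 lay above both of sgControl, but sgMETTL13 replicate 1 was within 2 CPM of sgControl replicate 1, and the gene passed without that sgControl library (0.56, adjusted p = 0.00407). It did not without sgControl replicate 2 (0.12, adjusted p = 0.721), sgMETTL13 replicate 2 (0.21, adjusted p = 0.581) or sgMETTL13 replicate 1 (0.42, adjusted p = 0.124). Whether the paralogs differed in response was not tested. SLC25A20, which brings acylcarnitines in for fatty acid oxidation, had 20 and 12 footprints against 29 and 26 (0.36, SE 0.346). The ornithine carrier SLC25A15, the glutamate carrier SLC25A22, the glycine carrier SLC25A38 and the branched-chain amino acid carrier SLC25A44 ranged from -0.24 to 0.29. SLC25A29, a carrier of basic amino acids, had at most 3 footprints in a library.

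The mitoferrins SLC25A28 and SLC25A37 import iron for heme and iron-sulfur clusters. SLC25A37 read 4.11 and 5.81 CPM of footprints in sgControl and 3.86 and 4.39 CPM in sgMETTL13, with overlap of the arms. SLC25A28 read 14.4 and 15.0 CPM against 13.2 and 11.6 CPM, without overlap. Both had an LFC of -0.24 (SE 0.203 for SLC25A28 and 0.295 for SLC25A37), and neither passed. Among carriers related to the uncoupling proteins, SLC25A30 read 4.48 and 6.50 CPM against 7.72 and 7.57 CPM (0.51, SE 0.265, adjusted p = 0.173), and SLC25A14 read -0.08 (SE 0.467).

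SLC25A46 was the member of unsettled substrate with the smallest p in footprints. It sits in the outer membrane, where it is linked to mitochondrial fission and lipid transfer. Its footprints read 45.9 and 53.0 CPM in sgControl against 43.2 and 30.3 CPM in sgMETTL13, without overlap of the arms (LFC -0.42, SE 0.167, adjusted p = 0.0693). It passed without sgControl replicate 1 (-0.53, adjusted p = 0.0181) and without sgMETTL13 replicate 1 (-0.71, adjusted p = 0.0176). It was smaller without sgControl replicate 2 (-0.32, adjusted p = 0.293) and smallest without sgMETTL13 replicate 2 (-0.19, adjusted p = 0.674). SLC25A35 read -0.93 on 6 to 12 footprints per library (SE 0.487, adjusted p = 0.176), SLC25A43 read 0.07 and SLC25A45 read -0.31. The 6 members not tested in footprints were SLC25A27, SLC25A29, SLC25A33, SLC25A34, SLC25A42 and SLC25A53, with at most 8 footprints in any library.

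**Figure D2:**
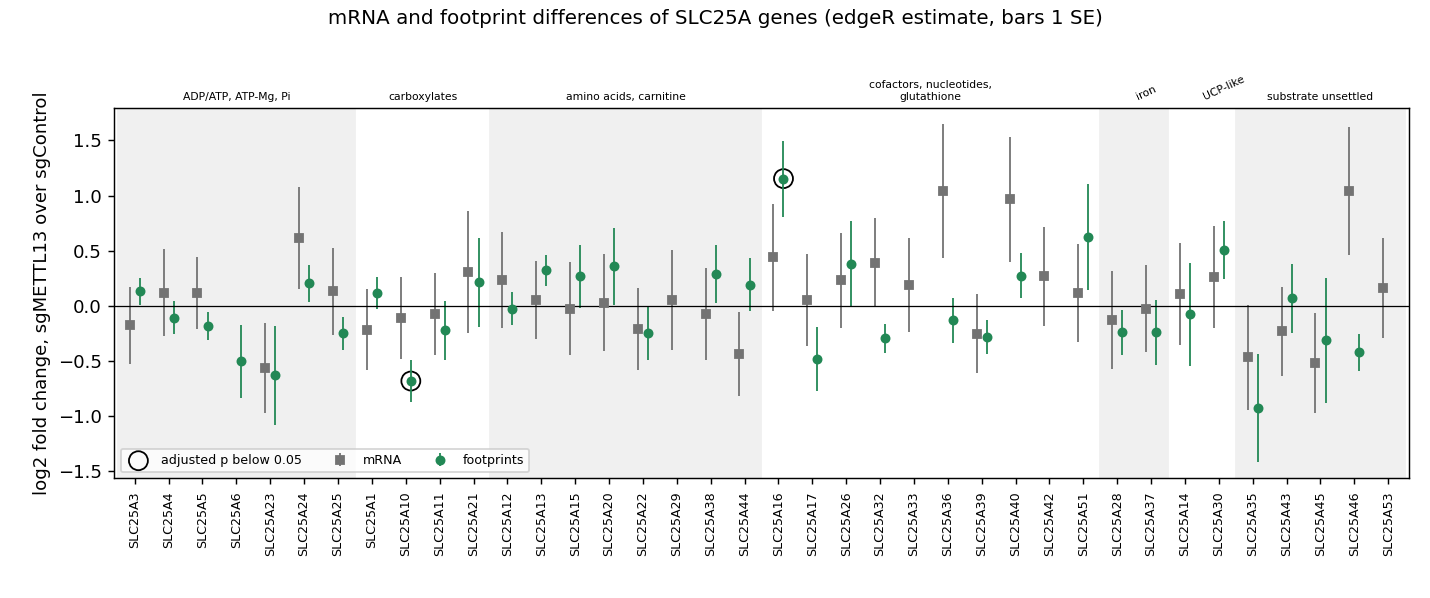
The log2 fold change of sgMETTL13 over sgControl for mRNA (grey squares) and footprints (green circles), with bars of 1 SE, for all but 1 of the SLC25A genes tested in either assay. Circled points passed edgeR's test over all genes: SLC25A10 at -0.68 and SLC25A16 at 1.15, both in footprints, and the largest mRNA values, near 1, carry the longest bars.

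No SLC25A mRNA passed. Of 38 tested, 0 had an adjusted p below 0.05 in edgeR or in DESeq2 and 0 had an unadjusted p below 0.05, against 0% and 0.802% of all 12468 genes tested in edgeR. The median log2 fold change was 0.05 over these 38 and 0.04 over all genes. In 2 of the 38 (5.26%) the arms stood clear of each other, both lower in sgMETTL13, against 12.0% of all genes. These were SLC25A44, at 70.0 and 88.8 CPM against 53.2 and 64.0 CPM, and SLC25A45, at 4.04 and 4.43 CPM against 2.26 and 3.64 CPM, and they were named after their values were seen.

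The 5 SLC25A mRNAs with the smallest p were SLC25A46, SLC25A36, SLC25A40, SLC25A23 and SLC25A24. SLC25A46 mRNA read 27.5 and 28.4 CPM in sgControl against 93.4 and 21.5 CPM in sgMETTL13 replicates 1 and 2 (LFC 1.04, SE 0.582). SLC25A36 mRNA read 19.8 and 15.6 CPM against 59.5 and 13.1 CPM (1.04, SE 0.606). SLC25A40 mRNA read 16.7 and 16.9 CPM against 51.7 and 13.9 CPM (0.97, SE 0.567). In these 3 genes sgMETTL13 replicate 1 was the highest library and sgMETTL13 replicate 2 the lowest, so the difference between the arms rests on 1 library. The part of that library's other properties in these values was not tested.

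SLC25A24 mRNA had the same layout in part, at 25.9 and 27.5 CPM in sgControl against 55.7 and 26.2 CPM in sgMETTL13 (0.61, SE 0.461). SLC25A32 mRNA had that layout in full, at 84.8 and 98.0 CPM against 159 and 80.5 CPM (0.39, SE 0.404). SLC25A23 mRNA read 69.7 and 114 CPM in sgControl against 49.8 and 74.3 CPM in sgMETTL13 (-0.57, SE 0.409). Replicate 1 of sgMETTL13 was at least 2-fold above replicate 2 in 6 of the 38 SLC25A mRNAs (15.8%), and in 21.9% of all genes tested, a limit chosen after the data were seen.

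With sgMETTL13 RNA replicate 2 left out, 7 of 39 SLC25A mRNAs passed (17.9%), against 19.9% of all genes; the lone sgMETTL13 library is then assumed to vary like the sgControl pair. SLC25A36 then read 1.75, SLC25A46 1.74, SLC25A40 1.62, SLC25A24 1.06, SLC25A16 0.86 and SLC25A32 0.80, and SLC25A23 read -0.88. With replicate 1 left out in its place, none of these passed, and SLC25A36 read -0.36, SLC25A46 -0.31, SLC25A40 -0.21, SLC25A24 0.04, SLC25A16 -0.12, SLC25A32 -0.12 and SLC25A23 -0.24. In 5 of the 7 the sign thus turned with the library left out. Of the 6 genes with the gap of at least 2-fold between the sgMETTL13 RNA replicates, sgMETTL13 replicate 1 was also the highest footprint library in SLC25A16, SLC25A21 and SLC25A40, and not in SLC25A24, SLC25A36 and SLC25A46.

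**Figure D3:**
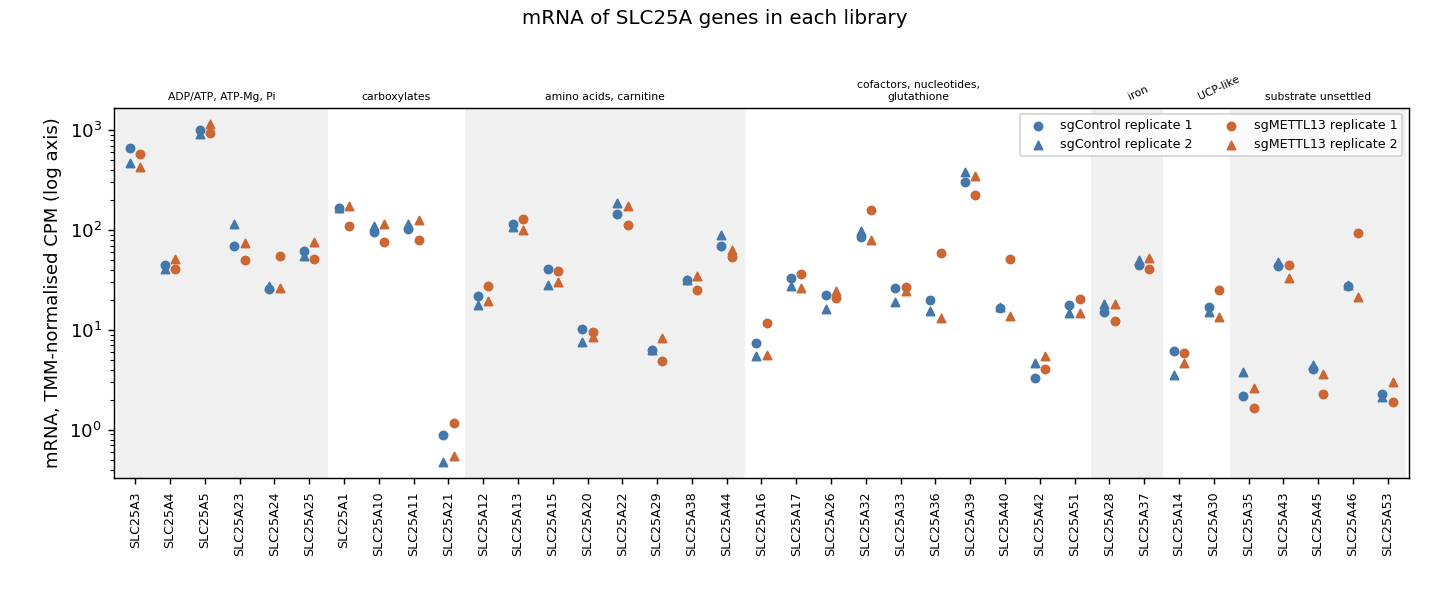
mRNA of all but 1 of the 38 SLC25A genes tested, in TMM-normalised CPM on a log axis, for each of the 4 RNA libraries, grouped as for footprints. The sgMETTL13 replicate 1 circle stands well above the other 3 points in SLC25A36, SLC25A40 and SLC25A46 and above them in SLC25A24 and SLC25A32.

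The stretch before the start given in the promoter table is shown for SLC25A36, SLC25A40 and SLC25A46, whose mRNAs were high together in that library, for SLC25A10, whose footprints fell, and for SLC25A5, the most counted carrier in RNA. These 5 were chosen after their values were seen. Each is the 120 bases up to the start on the gene's strand, from the RefSeq promoter table (GRCh38.p14). For SLC25A46 the start in that table lies inside the span RefSeq lists for the gene, which begins upstream at 110738145, so the stretch shown is before 1 start and within the gene. The table holds 35 of the 41 genes, and SLC25A16 is not among them. Capitals mark matches on either strand to CCGGAAGT (the site of ETS factors), TGACGTCA (the cAMP response element), CACGTG (the E-box), TATAAA (the TATA box) or CCAAT.
SLC25A10, chr17:81712164-81712283, plus strand: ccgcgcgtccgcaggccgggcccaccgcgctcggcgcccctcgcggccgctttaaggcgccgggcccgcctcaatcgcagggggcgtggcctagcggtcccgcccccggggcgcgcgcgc
SLC25A36, chr3:140941716-140941835, plus strand: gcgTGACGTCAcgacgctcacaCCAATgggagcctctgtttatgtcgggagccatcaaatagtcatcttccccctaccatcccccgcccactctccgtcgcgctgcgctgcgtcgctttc
SLC25A40, chr7:87876361-87876480, minus strand: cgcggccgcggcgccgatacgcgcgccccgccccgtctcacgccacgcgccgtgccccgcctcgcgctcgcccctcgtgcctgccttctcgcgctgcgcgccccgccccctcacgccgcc
SLC25A46, chr5:110738887-110739006, plus strand: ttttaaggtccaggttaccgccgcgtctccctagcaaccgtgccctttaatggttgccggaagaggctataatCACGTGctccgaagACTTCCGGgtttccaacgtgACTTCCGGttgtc
SLC25A5, chrX:119468324-119468443, plus strand: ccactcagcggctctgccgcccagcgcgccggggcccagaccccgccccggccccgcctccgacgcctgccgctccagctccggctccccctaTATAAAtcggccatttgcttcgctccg

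Within 250 bases before the start, SLC25A46 held 2 matches to the ETS letters and 1 E-box, SLC25A36 held a cAMP response element, a CCAAT and an E-box, and SLC25A10 and SLC25A40 held none of the 5 motifs. SLC25A46 also held CCGGAAG, the ETS letters less 1 base, on the other strand. SLC25A5 held a TATA box 27 to 22 bases before its start. The 3 genes whose mRNAs were high together thus shared none of the 5, though SLC25A36 and SLC25A46 each held an E-box. The E-box of SLC25A36 lay 143 to 138 bases before its start, outside the 120 bases printed. In all 9 motifs were searched on both strands, and the 5 marked ones were picked after all matches were seen. Of the 35 SLC25A genes in the promoter table, 4 held CCGGAAGT (11.4%, against 5.82% of 15843 protein-coding genes), 3 TGACGTCA (8.57% against 2.73%), 7 CACGTG (20% against 9.73%) and 20 CCAAT (57.1% against 40.2%). TATAAA was in 2 (5.71% against 11.9%). Of the 4 motifs not marked, the palindromic site of NRF1 was in 0 (against 1.72%), the same site with 1 free base in 2 (5.71% against 8.72%), CCGGAAG, which lies within CCGGAAGT, in 10 (28.6% against 14.0%) and TGACGT, which lies within TGACGTCA, in 5 (14.3% against 10.5%). The 15843 genes were not limited to those of the count table, from which the SLC25A genes came, so the sets differ in kind. A match of letters is not a measured binding site.

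Footprints per mRNA passed the test for no SLC25A gene. Of 34 tested in a joint model of both assays, 0 passed in edgeR or in DESeq2 and 0 had an unadjusted p below 0.05, against 0% and 3.32% of all 10446 genes tested in edgeR. The median log2 difference was -0.07 over these genes and -0.11 over all genes. The 5 smallest p belonged to SLC25A46 (-1.44, SE 0.759), SLC25A44 (0.64, SE 0.381), SLC25A32 (-0.67, SE 0.449), SLC25A36 (-1.13, SE 0.791) and SLC25A10 (-0.56, SE 0.402). Footprints and mRNA of SLC25A44 read to opposite sides, with footprints of 7.26 and 7.01 CPM in sgControl against 8.43 and 7.90 CPM in sgMETTL13 and its mRNA lower. The values of SLC25A46, SLC25A32 and SLC25A36 rest on the high RNA library: without sgMETTL13 RNA replicate 1 they were -0.12, -0.19 and 0.22, and without replicate 2 they were -2.13, -1.06 and -1.84 and passed, as did SLC25A40 at -1.31. SLC25A10 and SLC25A44 moved too, to -0.92 and 0.42 without replicate 1 and to -0.20 and 0.81 without replicate 2, and passed in neither.

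The ratio of footprint CPM to mRNA CPM spread widely within the family, and paralogs could lie far apart in it. In sgControl it ran from 0.0169 in SLC25A23 to 3.32 in SLC25A32 over the 34 genes tested in both assays, and from 0.0161 to 2.18 in sgMETTL13. SLC25A32 had 2351 and 1888 footprints against 3152 and 2035 RNA counts in sgControl, whereas SLC25A23 had 13 and 9 footprints against 2592 and 2367 RNA counts. The glutamate carrier SLC25A22 (0.0509), the NAD importer SLC25A51 (0.0565) and the oxoglutarate carrier SLC25A11 (0.0717) lay near the low end in sgControl. SLC25A21 (2.43), SLC25A12 (2.17) and SLC25A46 (1.77) lay near the high end. The ratio of SLC25A21 rests on few counts, 12 and 11 footprints against 33 and 10 RNA counts in sgControl. Of the paralogs, SLC25A28 read 0.881 and SLC25A37 0.105, and SLC25A40 read 0.951 and SLC25A39 0.124. These ratios were not corrected for the coding share of each transcript or for positions where short reads cannot be placed, and their part in the spread was not tested.

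**Figure D4:**
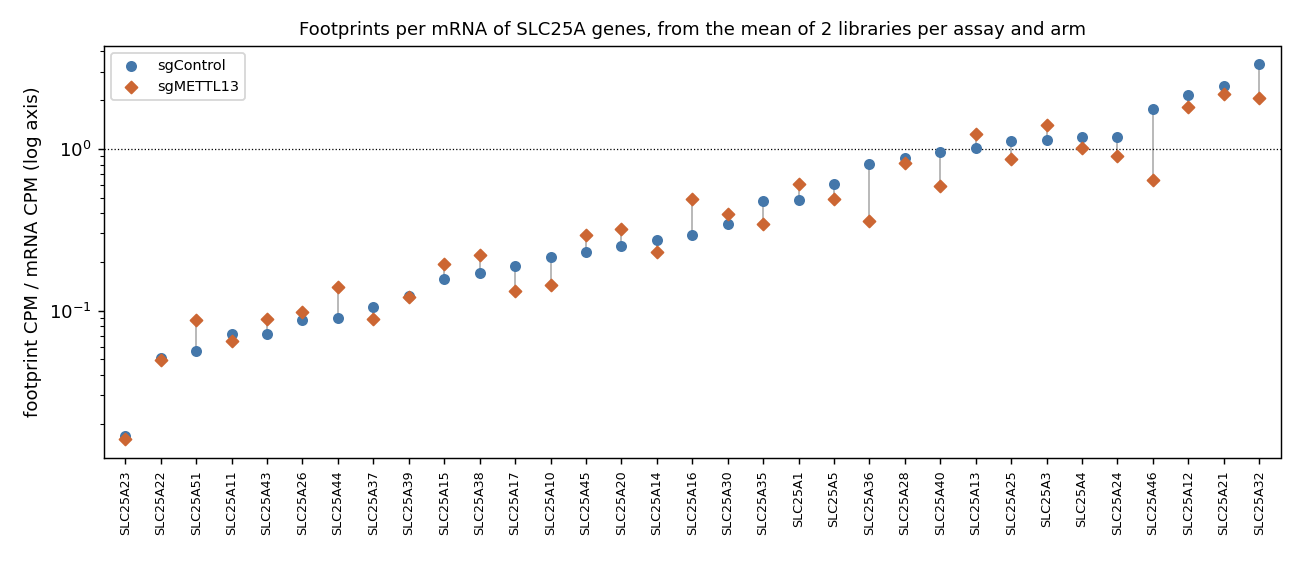
Footprint CPM divided by mRNA CPM on a log axis for all but 1 of the 34 SLC25A genes tested in both assays, each from the mean of 2 libraries per assay, in order of the sgControl ratio; circles are sgControl and diamonds sgMETTL13. The ratio runs from 0.0169 in SLC25A23 to 3.32 in SLC25A32 in sgControl, and the arms are farthest apart in SLC25A46 (1.77 and 0.640) and SLC25A36 (0.803 and 0.361).

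Genes that work beside the carriers were read from lists made for this family. The carrier relatives MTCH1 and MTCH2, which insert proteins into the outer membrane or scaffold there and belong to the family under other symbols, did not pass, at 0.00 (SE 0.135) and 0.34 (SE 0.146). Of the 14 genes of the import route tested in footprints, 1 rose and 3 fell, against 8.94% and 12.0% of all genes, with a list median of -0.17 against 0.01. TOMM22, the central receptor of the outer membrane pore, which has 6 pseudogenes in the RefSeq table, fell from 299 and 384 CPM to 189 and 199 CPM (LFC -0.81, SE 0.132, edgeR adjusted p = 8.75e-05). TOMM5, a small subunit of that pore, fell from 604 and 875 CPM to 470 and 344 CPM (-0.86, SE 0.149). TIMM29, a subunit of the TIM22 translocase that inserts carriers, fell from 12.2 and 14.0 CPM to 8.13 and 6.70 CPM (-0.81, SE 0.227). TOMM7, another small subunit of the pore, rose, with 29.0 and 17.1 CPM in sgControl against 40.5 and 53.0 CPM in sgMETTL13 (0.99, SE 0.191). In each of these 4 genes, named because they passed, the arms did not overlap, which was also so in 64.1% of all genes tested in footprints. TOMM70, the receptor that takes carriers from cytosolic chaperones, read 139 and 144 CPM against 162 and 172 CPM and did not pass (0.24, SE 0.129).

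Of 16 other inner-membrane transporters and porins, 1 rose and 1 fell in footprints, where 8.94% of all genes were called higher and 12.0% lower, which is also the background of the other lists below. SLC30A9, a mitochondrial zinc exporter, rose, with 27.5 and 21.0 CPM in sgControl against 44.2 and 49.7 CPM in sgMETTL13 (0.94, SE 0.167), and LETM1, a cation exchanger, had an LFC of -0.35 (SE 0.124, edgeR adjusted p = 0.0408). The pyruvate carrier subunits MPC1 and MPC2 read 0.37 (SE 0.261) and 0.36 (SE 0.318) without passing. Among 6 shuttle enzymes MDH2, the matrix malate dehydrogenase, fell from 201 and 260 CPM to 166 and 137 CPM (-0.60, SE 0.140) and none rose. Of 18 tricarboxylic acid cycle enzymes and citrate users, CS and SUCLA2 rose and none fell. CS, the citrate synthase, read 0.48 (SE 0.158), and SUCLA2, a succinyl-CoA ligase subunit, read 0.43 (SE 0.158). In the RefSeq table CS, SUCLA2 and LETM1 have 3 numbered pseudogenes each. TIMM29, MDH2, CS, SUCLA2 and LETM1 lost their calls without sgControl replicate 2 and also without sgMETTL13 replicate 2, and LETM1 and SUCLA2 did without sgMETTL13 replicate 1. DESeq2 did not call TOMM5, LETM1, CS or SUCLA2, and LETM1 was not called without the filter on low counts (adjusted p = 0.0556). TOMM22, TOMM5, TOMM7 and SLC30A9 kept theirs with any 1 footprint library left out. None of the 9 genes named here as risen or fallen passed in the fit of all 8 libraries. That fit called 0 of 10714 genes, so this does not set the 9 apart. The 9 did not pass in mRNA or in footprints per mRNA either, where 0 of all genes passed in edgeR.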

How the data were processed

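Raw counts by gene symbol were deposited by the authors, 1 column for each of 8 libraries. The submitters' processing notes name hg38 and list Bowtie 1.2.2, cutadapt 1.18, HISAT2 2.0.4, UMI-tools and featureCounts; their roles, the annotation, the strand setting and the treatment of reads matching several places are not given in the sources used here. Groups followed the labels. The whole table was fitted in R 4.3.3 with edgeR 4.0.16 (quasi-likelihood test, TMM, default filter on low counts), separately for RNA and footprints. The interaction of arm and assay in a joint model gave footprints per mRNA. P-values were adjusted by Benjamini-Hochberg over all genes tested. An SE is the LFC divided by the root of its F statistic. Alternatives were DESeq2 1.42.0, its size factors, no filter, a replicate block, 1 model of all libraries, and leaving out each library. Levels per coding length were planned but not computed, since no lengths were used here. Where genes were ordered by level, the order was of counts or CPM without correction for length. Genes named were those past the threshold, the 5 smallest p where none passed, and 14 listed carriers; others were named to complete their group. Members and lists were chosen with earlier results of these data known. The values of 1 member are not reported here; it is included in the counts and medians.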

Additional observations from a re-analysis of the deposited data

How the results depend on the processing

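The number of SLC25A genes called in footprints was 2 with edgeR, with DESeq2 size factors and without a filter on low counts. It was 1 with DESeq2, where SLC25A16 had no adjusted p, and 0 in the fit of all 8 libraries, which called none of all genes. It ran from 0 to 5 with 1 footprint library left out: 0 without sgControl replicate 2, 1 without sgMETTL13 replicate 2, 2 without sgMETTL13 replicate 1 and 5 without sgControl replicate 1. Over all genes those fits called 824, 701, 1612 and 3018. For mRNA the number was 0 in each setting on all libraries and ran from 0 to 7 with 1 RNA library left out, the 7 being without sgMETTL13 replicate 2. For footprints per mRNA it was 0 in each setting on all libraries and ran from 0 to 4. With the replicate number as a block, 2 SLC25A genes (SLC25A10 and SLC25A16) were called in footprints and 0 in mRNA, and 1729 of all genes in footprints. For footprints per mRNA the block instead joined the RNA and footprint libraries of the same arm and number, and 0 SLC25A genes were called. Of the other genes named, LETM1 (adjusted p = 0.114), CS (0.0528) and SUCLA2 (0.0943) lost their footprint calls with the block. Same-numbered libraries of the arms deviated together in RNA (correlation 0.41) and apart in footprints (-0.195). Deviations of RNA and footprint libraries of the same arm and number had correlations of 0.173 in sgControl and 0.0136 in sgMETTL13. The labels give no shared batch, so the numbers were not taken to pair the samples. A crossed replicate block, chosen after seeing the data, called 5 SLC25A genes and 3220 of all genes in footprints. A value that passed in neither fit was not counted as reversed when its sign turned. Such turns were 1 of 523 values of SLC25A genes under settings on all libraries (SLC25A39 in footprints per mRNA, from -0.02 to 0.01 with the block) and 88 of 564 with 1 library left out. The cause of these changes was not tested. DESeq2 called 5 of all genes in footprints per mRNA, none of them SLC25A genes. With 2 libraries per arm, the few footprints of SLC25A14, SLC25A20, SLC25A21, SLC25A23, SLC25A26, SLC25A35, SLC25A45 and SLC25A51 leave moderate differences undetectable at this depth. Moderate mRNA differences are undetectable too: the median SE of the SLC25A mRNAs was 0.428, and METTL13 mRNA at -1.42 (SE 0.406) did not pass.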
